A study of Mus musculus with 10 samples.

Results

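The 4 CPEB genes of the mouse, Cpeb1, Cpeb2, Cpeb3 and Cpeb4, encode the cytoplasmic polyadenylation element binding proteins. Their transcripts were read through the 11 probe sets that the platform annotation lists with exactly 1 of these genes, out of 45037 probe sets on the array besides controls. The arrays carried 18193 genes listed in this way. Cpeb1 had 1 probe set, Cpeb2 had 3, Cpeb3 had 4 and Cpeb4 had 3. A probe set is a group of short probes designed against 1 stretch of a transcript, and its level can be compared between samples but not with that of another probe set.

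RNA came from unfertilised oocytes arrested in the second meiotic metaphase (MII), matured in B6D2F1 females after equine gonadotropin and, 48 h later, 5 IU of human chorionic gonadotropin. For all arrays, collection was 16 h after the second hormone. The spindle-chromosome complex (SCC), removed by microsurgery, was measured on 3 arrays (replicates 1 to 3). The enucleated cytoplast left by that surgery was measured on 4 arrays (replicates 1 to 4), and the intact MII oocyte on 3 arrays (replicates 2 to 4). The study asked whether maternal transcripts are concentrated at the meiotic spindle. The labels name no genetic change and, besides the hormones, no drug in any group. The labels also do not give the age of the mice or the number of oocytes pooled per sample. They call the samples biological replicates without naming animals, so the p-values cover the spread among these arrays, which may be partly technical. Each array received the same amount of labelled RNA after 2 rounds of amplification. Intensities therefore stand for shares of a sample's RNA, and neither the amount of a transcript per oocyte nor the amount of RNA in each part can be read from them.

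A fully grown oocyte stores maternal mRNAs with short poly(A) tails and hardly transcribes. CPEB proteins bind a U-rich element, the cytoplasmic polyadenylation element (CPE), in the 3′ untranslated region of such mRNAs. In frog oocytes CPEB1 holds its targets silent until Aurora A kinase phosphorylates it during maturation. It then brings in the poly(A) signal complex CPSF and a cytoplasmic poly(A) polymerase, and the lengthened tail promotes translation. CPEB2, CPEB3 and CPEB4 form the other branch of the family, with closely related RNA-binding domains. In the frog, CPEB4 takes over from CPEB1 in the second meiotic division, and some CPE-bearing mRNAs are found at the spindle. CPEB3 is best known from neurons, where it controls translation at synapses.

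The samples carried the markers of oocytes. Of 15 oocyte genes measured, 13 were above background on every SCC array, 14 on every cytoplast array and 13 on every MII oocyte array. Background was taken on each array as the 95th percentile of probe sets of genes specific to other tissues, which lay between 78.3 and 112. Figla, an oocyte transcription factor, was the only one of the 15 not above it on any array. The cumulus cells that surround the oocyte were looked for with 21 marker genes, of which 19 were above background on no SCC array, 19 on no cytoplast array and 18 on no MII oocyte array. The summed intensity of these 21 was 697 to 850 in the SCC, 644 to 767 in the cytoplast and 652 to 768 in the MII oocyte. Of the 21, 2 were above background on every SCC array, 0 on every cytoplast array and 1 on every MII oocyte array. None of the 47 probe sets of these genes was listed at 0. None of the 12 cumulus genes that could be tested differed between the SCC and the cytoplast by limma after adjustment, and 1 had an unadjusted p under 0.05.

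Of the 11 CPEB probe sets, 7 were bright enough to test, lying above the median of their array on at least 3 arrays. These were the single probe set of Cpeb1, all 4 of Cpeb3 and 2 of Cpeb4. The 3 probe sets of Cpeb2 had intensities between 5.71 and 14.2 on all 10 arrays, and the third of Cpeb4 (1449931_at) had 7.81 to 10.8. All 4 therefore lay below both the array medians (15.6 to 16.6) and the background level on every array, so no difference between the groups can be given for Cpeb2. The dim Cpeb4 probe set stood beside 2 bright ones of the same gene, and the position of each along the transcript was not looked up.

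Between the SCC and the cytoplast, 2 of the 7 probe sets were higher in the SCC, 1 of Cpeb4 and 1 of Cpeb3, and none was lower. The difference was 1.99-fold for the called Cpeb4 probe set and 2.58-fold for the called Cpeb3 one. Their 95% intervals overlapped (1.61 to 2.47 and 1.74 to 3.84). A further probe set of each gene, 1420617_at of Cpeb4 and 1437765_at of Cpeb3, was not called (1.47-fold and 1.04-fold). Differences were tested with limma over all 23739 probe sets kept, and a call means a Benjamini-Hochberg adjusted p under 0.05. Among the 7 CPEB probe sets 28.6% were called higher, against a background over all probe sets of 6.74% higher, 0.274% lower and 7.01% in either direction. The median log2 difference was 0.36 over the 7 CPEB probe sets, which is the value of Cpeb1 1417960_at, above background on no cytoplast array. It was 0.01 over all probe sets and 0.28 over those with a mean log2 intensity above 8.

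**Figure D1:**
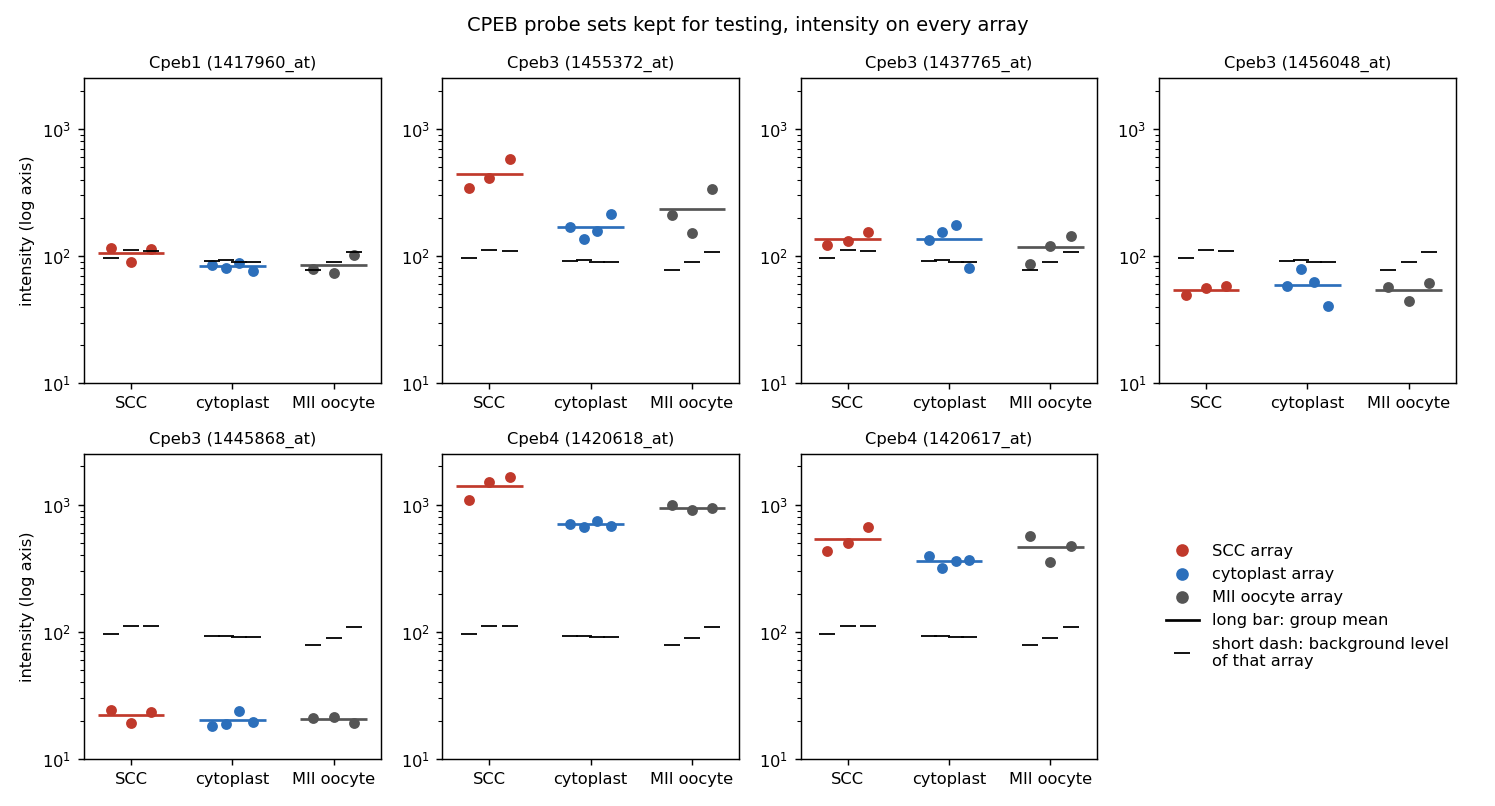
Intensity (log axis) of the 7 tested CPEB probe sets on each of the 3 SCC, 4 cytoplast and 3 MII oocyte arrays. Points are arrays, long bars are group means and short dashes the background level of each array. The SCC arrays of Cpeb4 1420618_at (1086 to 1662) and Cpeb3 1455372_at (341 to 577) lie above all other arrays.

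Cpeb4 was read most clearly by probe set 1420618_at. Its intensity was 1086, 1496 and 1662 on SCC replicates 1, 2 and 3, against 706, 666, 750 and 674 on cytoplast replicates 1 to 4. The lowest SCC array stood well above the highest cytoplast array, and the cytoplast arrays lay close together. The means were 1415 ± 296 in the SCC (SD, n = 3) and 699 ± 38.0 in the cytoplast (SD, n = 4), a 1.99-fold difference (95% interval 1.61 to 2.47). The log2 difference was 1.0 (SE 0.14), with a limma adjusted p = 0.00471. It passed under all 20 alternative settings run, which included leaving out each array in turn, with adjusted p between 0.00163 and 0.0372.

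The second bright probe set of Cpeb4, 1420617_at, had 436, 502 and 667 on the SCC arrays, against 391, 317, 361 and 367 on the cytoplast arrays. Again no SCC array overlapped a cytoplast array, but the gap was narrow. The log2 difference was 0.56 (SE 0.18, 1.47-fold, 95% interval 1.12 to 1.93) and did not pass by limma (adjusted p = 0.0931). It passed without MII oocyte replicate 3 (adjusted p = 0.0443), which leaves the difference itself unchanged. It also passed with the level of hybridisation controls in the fit (adjusted p = 0.0150) or as a block (adjusted p = 0.0309). Both of these settings were chosen after the values were seen.

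The 2 bright Cpeb4 probe sets were also compared with each other. The ratio between probe sets is not one of abundance, but it can be compared between groups. Within an array, the log2 ratio of 1420618_at to 1420617_at was 1.40 ± 0.149 in the SCC (SD, n = 3) and 0.964 ± 0.116 in the cytoplast (SD, n = 4). The difference of 0.44 had an exact two-sided permutation p = 0.0286, the smallest that 3 against 4 arrays allow, and no overlap between the groups. After adjustment over the 7 pairs of probe sets compared within Cpeb3 and Cpeb4, a comparison chosen after the values were seen, it did not pass (adjusted p = 0.1).

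Cpeb3 was represented by 4 probe sets, of which 1 was called. In 1455372_at the intensity was 341, 410 and 577 on SCC replicates 1 to 3, against 169, 136, 157 and 215 on cytoplast replicates 1 to 4. Every SCC array was brighter than every cytoplast array, and all 7 were above background. The means were 443 ± 121 in the SCC (SD, n = 3) and 170 ± 33.4 in the cytoplast (SD, n = 4), a 2.58-fold difference (95% interval 1.74 to 3.84; log2 1.37, SE 0.26, limma adjusted p = 0.0128). Without SCC replicate 2 the adjusted p was 0.0633 and without SCC replicate 3 it was 0.0775, with log2 differences of 1.41 and 1.16. The number of CPEB probe sets called higher was 1 in both cases.

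The other Cpeb3 probe sets were not called. In 1437765_at the SCC arrays had 121, 133 and 156 and the cytoplast arrays 134, 154, 175 and 80.4. The groups overlapped fully, with means of 137 ± 17.6 (SD, n = 3) and 136 ± 40.6 (SD, n = 4), a log2 difference of 0.06 (95% interval -0.49 to 0.60) and a limma adjusted p = 0.941. Its sign turned under both cyclic loess and quantile normalization. The remaining probe sets, 1456048_at (40.2 to 78.5 over all arrays) and 1445868_at (18.2 to 24.1), were below background on every array and did not pass (limma adjusted p = 0.844 and 0.610), so no fold is given.

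Within arrays, the log2 ratio of 1455372_at to 1437765_at was 1.67 ± 0.202 in the SCC (SD, n = 3) and 0.357 ± 0.748 in the cytoplast (SD, n = 4). The difference of 1.31 gave an exact two-sided permutation p = 0.0571 and an adjusted p = 0.1 over the same 7 pairs. The groups did not overlap. The other 5 of the 7 pairs held 1456048_at or 1445868_at, which were below background throughout, and are given no value. None of the 7 pairs passed after adjustment. Whether the 4 probe sets read different Cpeb3 transcripts was not tested.

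Cpeb1, the member with the best established role in oocytes, lay at the edge of background. Its probe set 1417960_at had 115, 89.8 and 115 on SCC replicates 1 to 3, against 85.0, 81.3, 88.3 and 76.8 on cytoplast replicates 1 to 4. The SCC arrays were all higher, but the dimmest of them was barely above the brightest cytoplast array. It was above background on 2 of 3 SCC arrays and on no cytoplast array, so no fold is given and the values carry little margin. The measured means were 107 ± 14.6 in the SCC (SD, n = 3) and 82.8 ± 4.94 in the cytoplast (SD, n = 4). The difference did not pass by limma (log2 0.36 between measured values, 95% interval 0.05 to 0.66, adjusted p = 0.171) and passed under none of the 20 alternatives (adjusted p from 0.107 to 0.455).

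In all, 4 of the 7 probe sets were higher in the SCC with no overlap of arrays and none was lower without overlap, where 13.9% and 5.88% of all probe sets tested were. Brightness moved with these results. The 95th percentile of intensity was 712 ± 86.5 on SCC arrays (SD, n = 3) and 574 ± 45.1 on cytoplast arrays (SD, n = 4; exact two-sided permutation p = 0.0571). For the 3944 probe sets whose log2 intensity averaged above 8, the median SCC minus cytoplast difference was 0.28. Cyclic loess brought that shift to 0.02, and with it Cpeb4 1420618_at kept a log2 difference of 0.73 (adjusted p = 0.0175) and Cpeb3 1455372_at one of 1.16 (adjusted p = 0.0222). After quantile normalization they were 0.69 (adjusted p = 0.0224) and 1.10 (adjusted p = 0.0313). The share of all probe sets called higher was then 2.13% and 1.76%.

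A control of RNA quality also had unlike means in the groups, and its SCC and cytoplast arrays did not overlap. Its difference did not reach p under 0.05 in an exact permutation test, where 3 against 4 arrays allow none below 0.0286. For beta-actin, the 3′ control probe set exceeded the 5′ one on the log2 scale by 3.42 ± 0.201 in the SCC (SD, n = 3) and 4.62 ± 0.687 in the cytoplast (SD, n = 4; exact two-sided permutation p = 0.0571). SCC replicate 2 (3.65) and cytoplast replicate 4 (3.66) were nearly equal. The part of this gap in the Cpeb3 and Cpeb4 results was not tested. The controls added at hybridisation split the arrays into 4 brighter and 6 dimmer ones. Among the dimmer arrays (2 SCC and 3 cytoplast) Cpeb4 1420618_at was 1.80-fold higher in the SCC and Cpeb3 1455372_at 2.43-fold. Among the brighter arrays, 1 SCC and 1 cytoplast array with no replicate, the same ratios were 2.47 and 2.68. Cytoplast replicate 1, counted with the dimmer arrays, lay nearly midway. The log2 difference of Cpeb3 1437765_at was -0.28 in the dimmer arrays and 0.95 in the unreplicated brighter pair.

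**Figure D2:**
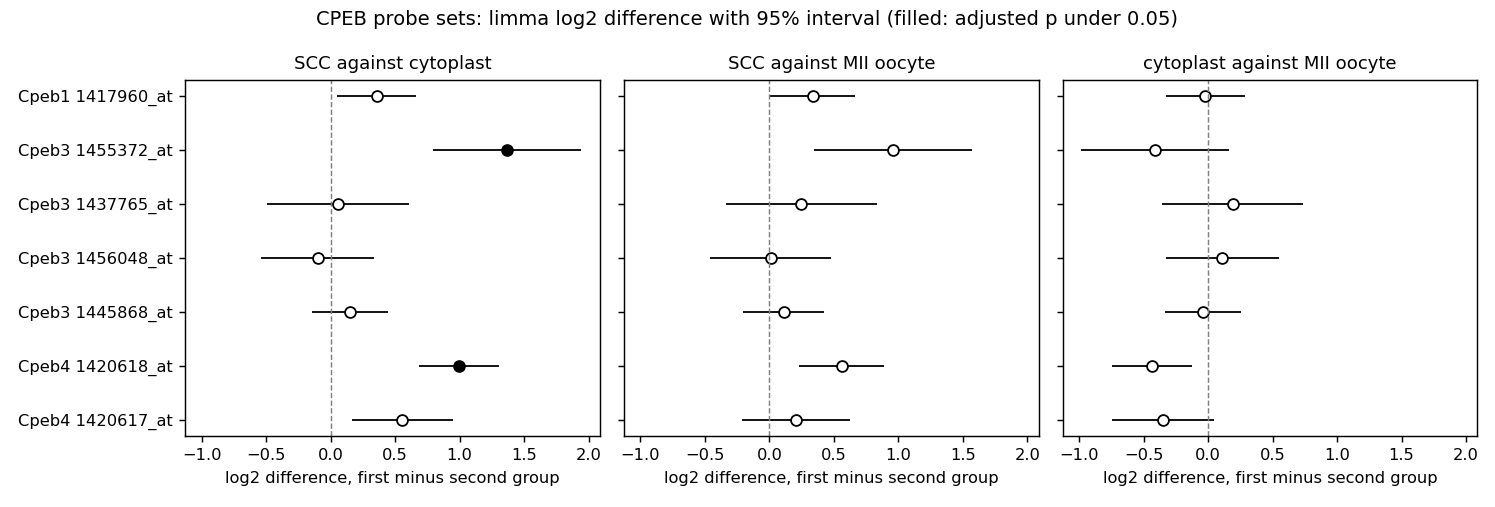
Limma log2 differences (points) with 95% intervals (lines) for the 7 tested CPEB probe sets in the comparisons of SCC with cytoplast, SCC with MII oocyte and cytoplast with MII oocyte. Filled points have an adjusted p under 0.05: Cpeb3 1455372_at (1.37) and Cpeb4 1420618_at (1.0) in SCC against cytoplast.

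Against the intact MII oocyte, which holds both parts, none of the 7 CPEB probe sets passed in the SCC by limma, and 3 had an unadjusted p under 0.05, as did 12.1% of all probe sets. Over all probe sets 0.0421% were called higher and 0% lower. Cpeb4 1420618_at read 1086, 1496 and 1662 in the SCC, against 987, 910 and 938 on MII oocyte replicates 2, 3 and 4. Every SCC array was above every MII oocyte array, and those were all above the cytoplast arrays. The SCC stood 1.47-fold above the MII oocyte (log2 0.56, SE 0.15, 95% interval 0.23 to 0.89, limma adjusted p = 0.166).

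Cpeb3 1455372_at read 341, 410 and 577 in the SCC, against 212, 153 and 338 on MII oocyte replicates 2 to 4, so the dimmest SCC array was just above the brightest MII oocyte array. The SCC was 1.94-fold higher than the MII oocyte (log2 0.96, SE 0.28, 95% interval 0.35 to 1.57, limma adjusted p = 0.186). This difference passed when the level of the hybridisation controls entered the fit (log2 1.13, adjusted p = 0.0138), a setting chosen after the values were seen. Cpeb1 read 115, 89.8 and 115 in the SCC, against 78.8, 74.3 and 101 on MII oocyte replicates 2 to 4, with overlap (log2 0.33, limma adjusted p = 0.403). Of the 7 probe sets, 2 were higher in the SCC than in the MII oocyte without overlap and none was lower, where 8.71% and 5.34% of all probe sets were.

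Between the cytoplast and the intact MII oocyte, none of the 7 passed by limma and 1 had an unadjusted p under 0.05, Cpeb4 1420618_at, where 4.44% of all probe sets did. No probe set on the array was called in either direction (0%). Cpeb4 1420618_at was the 1 CPEB probe set with every cytoplast array below every MII oocyte array, where 3.83% of all probe sets were (log2 -0.44, SE 0.14, adjusted p = 0.926). The order of Cpeb4 1420618_at was therefore SCC, then MII oocyte, then cytoplast, and neither neighbouring pair in that order passed the limma test. For Cpeb3 1455372_at the mean order was the same, but MII oocyte and cytoplast arrays overlapped (log2 -0.41 for cytoplast minus MII oocyte, 95% interval -0.98 to 0.16). In both, the comparisons share arrays, so the order is a description.

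The CPEB genes were also set against each other within arrays, since a constant scaling of an array leaves a ratio within it untouched. A shift that differs with brightness is not removed in this way. The mean log2 intensity was 9.88 for Cpeb4 1420618_at and 7.92 for Cpeb3 1455372_at. The brightest probe set of each gene was used, and only the difference of a ratio between groups has a meaning. The log2 ratio of Cpeb4 to Cpeb3, both above background on every array, was 1.69 ± 0.170 in the SCC (SD, n = 3) and 2.06 ± 0.295 in the cytoplast (SD, n = 4). The groups overlapped and the difference of -0.37 did not pass (exact two-sided permutation p = 0.143, adjusted p = 0.143 over 3 pairs of genes). Its sign turned (0.41) when the mean of all kept probe sets of each gene was used, a mean that takes in the 2 Cpeb3 probe sets below background. The ratios to Cpeb1 rest on a probe set that was above background on no cytoplast array, so they are given no value, and whether Cpeb4 or Cpeb3 differed between the SCC and the cytoplast by more than Cpeb1 cannot be read from them.

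**Figure D3:**
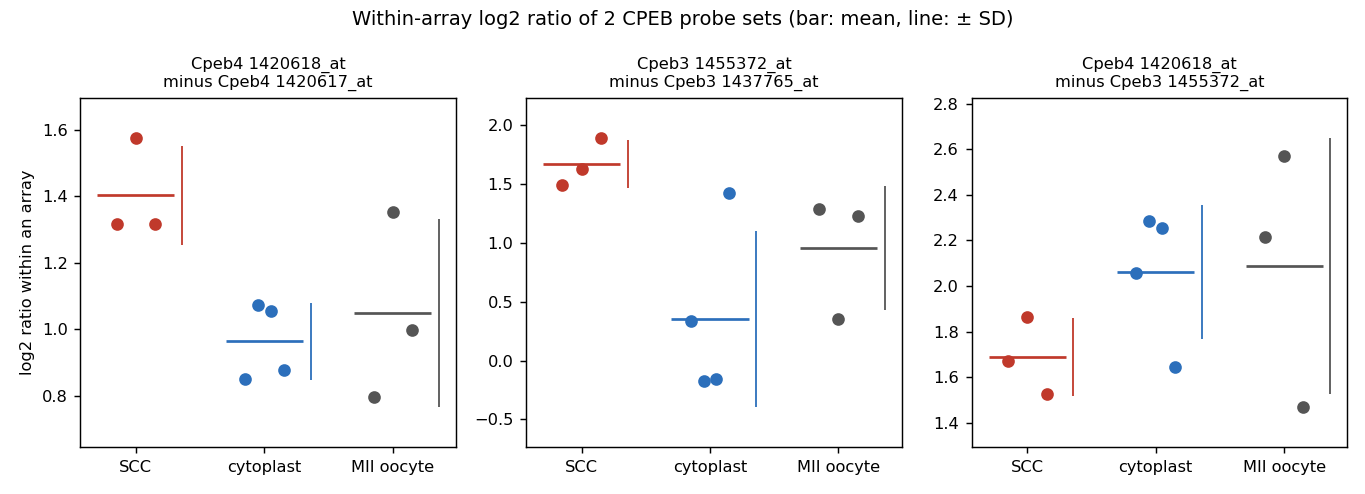
Within-array log2 ratios of the 2 bright Cpeb4 probe sets (left), of Cpeb3 1455372_at to 1437765_at (middle) and of Cpeb4 1420618_at to Cpeb3 1455372_at (right) on each SCC, cytoplast and MII oocyte array, with group means (bars) and SD (vertical lines). SCC and cytoplast arrays are apart in the left and middle panels (means of 1.40 and 0.964, and of 1.67 and 0.357) and overlap in the right one (1.69 and 2.06).

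Across the 10 arrays, log2 intensities of Cpeb3 1455372_at and Cpeb4 1420618_at had a Pearson correlation of 0.875. The 2 bright Cpeb4 probe sets correlated at 0.838, but 1455372_at and 1437765_at of Cpeb3 at 0.0807. These values describe arrays that share groups and array-wide brightness. The genes most like Cpeb4 among 7154 candidates were Zcchc3, Mosmo and Acsl3 (0.989 to 0.985). For Cpeb3 they were Tmem209, Tmco1 and Rundc3b (0.994 to 0.987), and for Cpeb1, itself near background, they were Mrps31, Rps24 and Acp1 (0.939 to 0.894). The fold in SCC over cytoplast of these 9 genes was between 1.29 and 1.94.

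**Figure D4:**
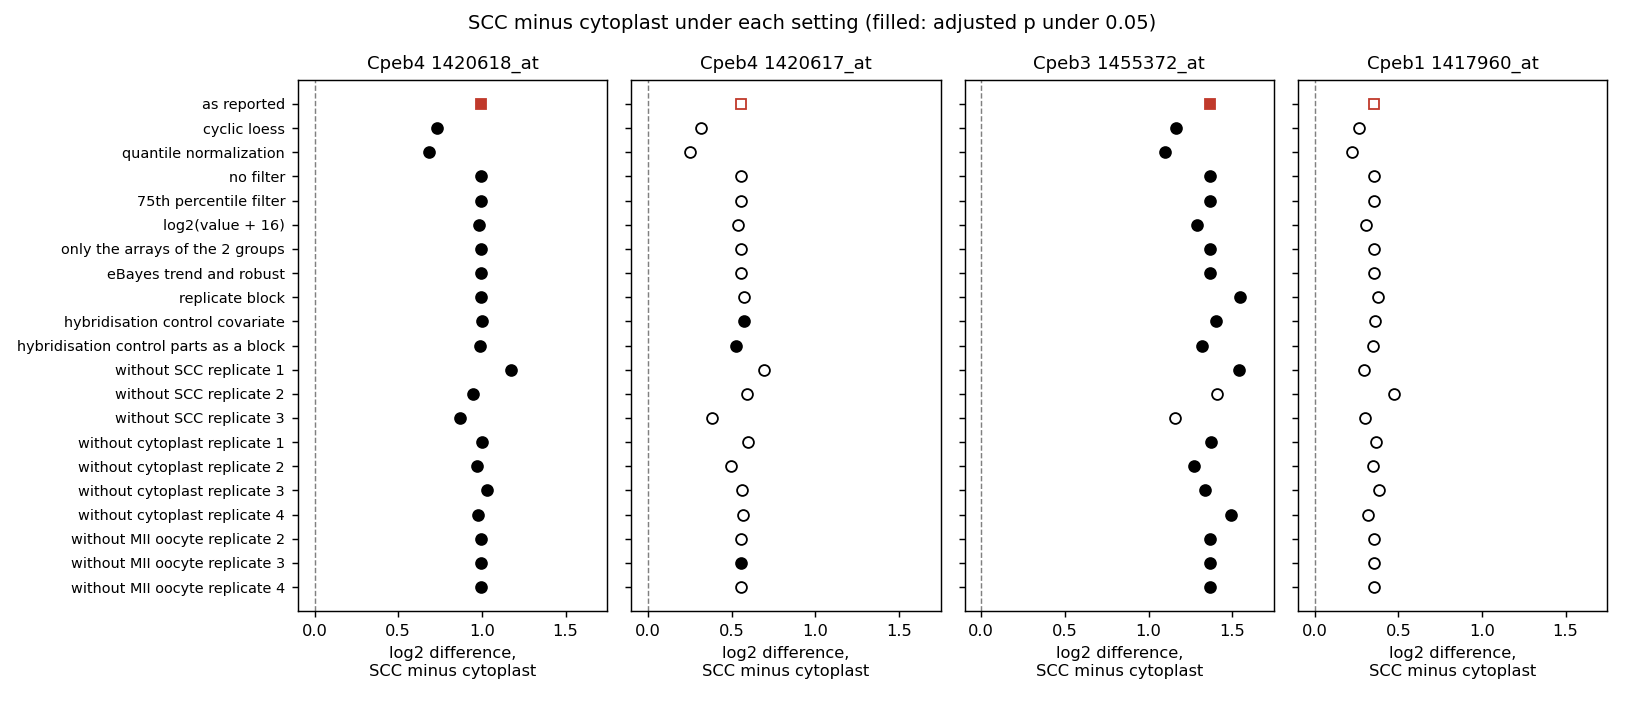
Log2 difference, SCC minus cytoplast, of 4 CPEB probe sets as reported (square) and under each of 20 alternative settings (circles). Filled symbols have an adjusted p under 0.05. Cpeb4 1420618_at is filled throughout, and Cpeb3 1455372_at is open without SCC replicate 2 and without SCC replicate 3.

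The proteins that work with CPEB were followed through 43 genes, of which 35 could be tested. By limma 2 were higher in the SCC than in cytoplasts and 1 was lower, so 5.71% were higher, against 8.02% of all 12714 genes higher and 0.275% lower. The median log2 difference was 0.20 in this list and 0.02 over all genes. Both higher calls were lost after cyclic loess and under quantile normalization, when the list's medians were 0.01 and -0.0033. They were also lost without SCC replicate 2, without SCC replicate 3 and without cytoplast replicate 1. The count was 1 without cytoplast replicate 2, 5 without SCC replicate 1, and 4 without cytoplast replicate 4 or without MII oocyte replicate 3.

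In the poly(A) signal complex, which recognises the site where the tail is added, 1 of 6 genes was higher. This was Wdr33, which contacts the poly(A) signal, at 228, 284 and 272 in the SCC, against 179, 181, 165 and 187 in the cytoplast. The SCC arrays were all above the cytoplast arrays (1.46-fold, log2 0.55, SE 0.11, adjusted p = 0.0165), while the 4 other Wdr33 probe sets tested did not pass and 2 of them had negative differences. Of 8 genes for poly(A) polymerases, deadenylases and their adaptors none was called. Tent2, the cytoplasmic poly(A) polymerase GLD2, had 1160, 1277 and 1519 in the SCC, against 1208, 945, 811 and 1689 in the cytoplast, fully overlapping (log2 0.23, adjusted p = 0.715, sign turned after cyclic loess and quantile normalization).

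None of 3 poly(A)-binding protein genes was called. Pabpc1l, the embryonic poly(A)-binding protein of oocytes, had 168, 173 and 191 in the SCC, against 128, 111, 128 and 151 in the cytoplast. These arrays did not overlap, yet the difference missed the threshold (1.37-fold, log2 0.46, adjusted p = 0.0613). It passed in 5 of 20 alternatives (limma adjusted p from 0.0308 to 0.291 over the 20). Among those 5 were the settings with the hybridisation controls, chosen after the values were seen. Of 3 genes that act on the mRNA cap none was called. Eif4enif1, the 4E-transporter that keeps CPEB-bound mRNAs from being translated, was at 620, 763 and 693 in the SCC and 636, 577, 562 and 556 in the cytoplast (log2 0.24, adjusted p = 0.240, sign turned after cyclic loess and quantile normalization).

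Among 11 RNA-binding partners and helicases, 1 was higher and 1 lower. Dazl, a germ cell RNA-binding protein that works with CPEB1 in mouse oocytes, had 987, 1203 and 1052 in the SCC, against 609, 599, 759 and 853 in the cytoplast. It was 1.55-fold higher with no overlap (log2 0.63, SE 0.14, adjusted p = 0.0240), and its second probe set did not pass (adjusted p = 0.698). Ddx6, the RNA helicase of repressed mRNPs, was called lower (adjusted p = 0.0337), but all its SCC arrays (31.0 to 39.2) and cytoplast arrays (50.6 to 89.3) were below background, so no fold is given. The other Ddx6 probe sets tested did not pass (limma adjusted p = 0.484 and 0.857). The Ddx6 call was lost after cyclic loess (adjusted p = 0.0605), after quantile normalization (adjusted p = 0.0550), with log2(value + 16), and without SCC replicate 2 or 3 or cytoplast replicate 1, 2 or 3 (adjusted p from 0.0594 to 0.160), which makes 8 of 20 alternatives. None of 4 kinase and turnover genes was called, and Aurka, Aurora A kinase, which activates CPEB1 in the frog, had 219, 242 and 268 in the SCC, against 212, 190, 152 and 314 in the cytoplast (log2 0.21, adjusted p = 0.699, sign turned after quantile normalization).

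Transcripts reported in mouse or frog oocytes to be under CPE control formed a list of 26 genes, of which 24 could be tested. By limma 6 were higher in the SCC than in cytoplasts and none lower, which is 25% against 8.02% of all genes. The list was chosen with earlier results of these data known, so this share is a description. The median log2 difference was 0.43, against 0.02 over all genes and 0.28 over the probe sets with a mean log2 above 8. Only Sycp1 of the 6 was called after cyclic loess or after quantile normalization, when 2.29% and 1.9% of all genes were called higher and the list's medians were 0.17 and 0.21. The count was 1 without SCC replicate 2 or without SCC replicate 3, 3 without cytoplast replicate 1 or without cytoplast replicate 2, and 10 without cytoplast replicate 4. The list shares Dazl, Aurka and Btg4 with the partner list.

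The 6 higher transcripts did not share 1 role. Sycp1, a protein of the synaptonemal complex that joins chromosomes in early meiosis, had 200, 263 and 242 in the SCC, against 107, 110, 133 and 80.6 in the cytoplast. The groups did not overlap and the fold was 2.20 (log2 1.14, SE 0.18, adjusted p = 0.00637), with 3 of 4 cytoplast arrays above background. It passed under all 20 alternatives, with adjusted p between 0.00186 and 0.0445.

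Bub3, a spindle checkpoint protein, had 2213, 2883 and 3419 in the SCC, against 1485, 1148, 1586 and 1589 in the cytoplast (1.94-fold, adjusted p = 0.0149). Hprt, a purine salvage enzyme, had 891, 1038 and 1015 in the SCC, against 549, 543, 653 and 667 in the cytoplast (1.63-fold, adjusted p = 0.00932). In both, the lowest SCC array exceeded the highest cytoplast array by a clear margin, but each was not called in 4 of 20 alternatives. A second Bub3 probe set, below background on all SCC and cytoplast arrays, did not pass (adjusted p = 0.0892). Dnmt1, the maintenance DNA methyltransferase, had 1962, 2397 and 3419 in the SCC, against 799, 742, 891 and 1836 in the cytoplast (2.54-fold, adjusted p = 0.0373), so cytoplast replicate 4 came close to the SCC. This probe set was not called in 9 of 20 alternatives. A second Dnmt1 probe set was called as well (2.36-fold, adjusted p = 0.0452), and both are of a type (_x_at) whose probes may also bind other transcripts. The remaining Dnmt1 probe set, which is not of that type and was above background on all SCC and cytoplast arrays, did not pass (1.66-fold, adjusted p = 0.0770). Smad5, a mediator of BMP signals, exceeded background on a single SCC array (1) and on none of the cytoplast ones, and was called higher with no fold given (101 ± 14.1 in the SCC, SD, n = 3, and 72.4 ± 7.65 in the cytoplast, SD, n = 4, limma adjusted p = 0.0462). Smad5 was not called in 12 of 20 alternatives, and its other probe sets tested did not pass (limma adjusted p = 0.960 and 0.273). Dazl was the sixth, and it was not called in 6 of 20 alternatives.

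Mos, Plat, Ccnb2 and Tpx2, members of the target list picked for their role, were not called. Mos, the kinase that starts the MAPK cascade of meiotic arrest, had 5311, 5275 and 7034 in the SCC, against 4226, 2003, 2131 and 8904 in the cytoplast (a log2 difference of 0.71, SE 0.50, and adjusted p = 0.493). The spread of the cytoplast arrays covered the SCC arrays. Plat, tissue plasminogen activator, had 8315, 8229 and 12710 in the SCC, against 4788, 3001, 3291 and 8570 in the cytoplast, and cytoplast replicate 4 again overlapped (2.13-fold, log2 1.09, SE 0.33, adjusted p = 0.0723). Plat passed in 6 of 20 alternatives. It passed without that array (log2 1.40, adjusted p = 0.0110), without MII oocyte replicate 3 (0.0483), with the 75th percentile filter (0.0495) and with the replicate block (0.0206). It also passed with the hybridisation controls as covariate (0.00335) or block (0.00526), settings chosen after the values were seen.

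Ccnb2, cyclin B2, had 1755, 1984 and 2060 in the SCC, against 1612, 1462, 1615 and 1784 in the cytoplast (log2 0.26, adjusted p = 0.231, sign turned after cyclic loess and quantile normalization). Tpx2, a spindle assembly factor whose frog mRNA is a CPE target at the spindle, had 1249, 1516 and 1684 in the SCC, against 1717, 1192, 1216 and 2544 in the cytoplast (log2 -0.11, adjusted p = 0.907). Its arrays overlapped fully and its sign turned without SCC replicate 1 or without cytoplast replicate 4. Another Tpx2 probe set, below background on all arrays of both groups, was called lower (adjusted p = 0.0430). A further pair of Tpx2 probe sets, above background on 2 of 3 SCC arrays and all 4 cytoplast arrays, had larger negative differences with wide errors and did not pass (log2 -2.01, SE 1.13, adjusted p = 0.363, and log2 -2.0, SE 0.945, adjusted p = 0.266). Ccnb1 could not be read from a single-gene probe set and was not analysed here.

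Against the intact MII oocyte no gene of either list was called in the SCC by limma (0.0472% of all genes were called higher and 0% lower), with 7 of 35 partner genes, 6 of 24 target genes and 13.3% of all genes at an unadjusted p under 0.05. Between cytoplast and MII oocyte none was called either (0% of all genes), with 1 partner, 2 targets and 4.68% of all genes at an unadjusted p under 0.05. The median log2 difference of the target list was 0.23 in SCC against MII oocyte and -0.22 in cytoplast against MII oocyte, beside 0.0008 and -0.06 over all genes. These comparisons share arrays with each other.

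**Figure D5:**
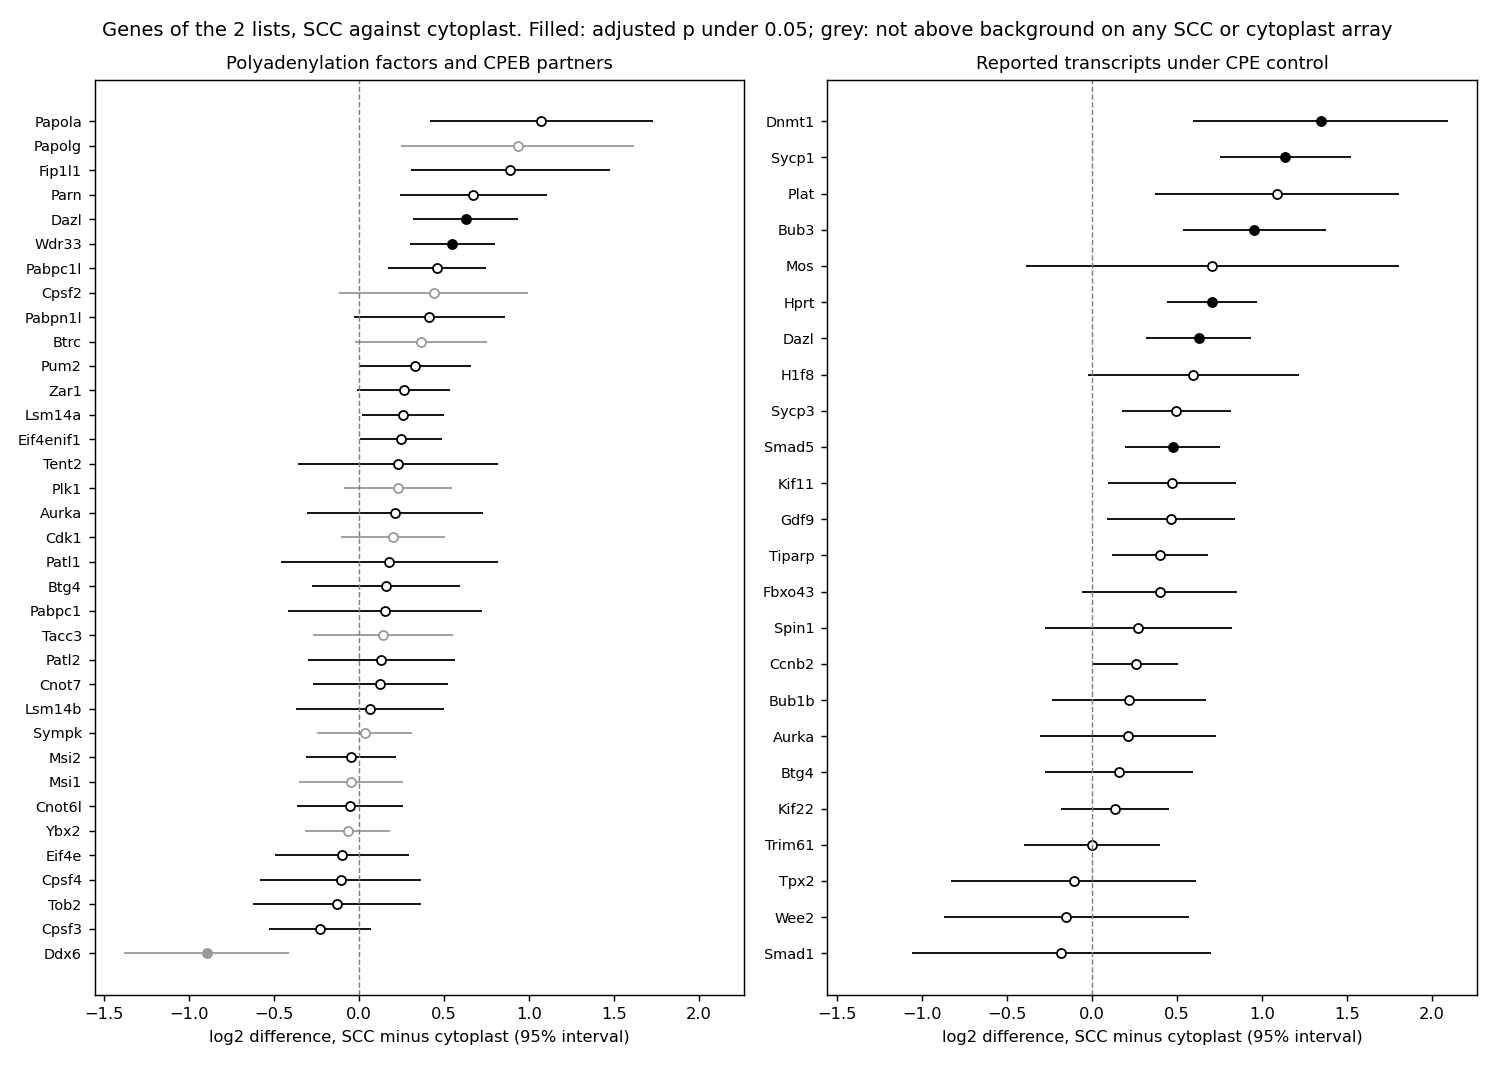
Log2 difference, SCC minus cytoplast, with 95% intervals, of the 35 tested polyadenylation factors and CPEB partners (left) and the 24 tested transcripts reported under CPE control (right). Filled points have an adjusted p under 0.05 and grey ones were below background on every SCC and cytoplast array. The median is 0.43 in the target list and 0.20 in the partner list. It is 0.02 over all genes and 0.28 over the probe sets with a mean log2 above 8.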

How the data were processed

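Transcript levels were measured on 10 one-colour arrays. The deposited values are linear intensities of 45101 probe sets, 64 of them controls. The submitters' processing notes name RMA, without settings or a genome build, so no coordinates are printed. Besides controls, the platform annotation listed 34945 probe sets with 1 gene, 932 with several and 9160 with none, and 34741 matched the RefSeq gene table of GRCm38.p6, used for names only.

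Values were taken to log2 without a pseudocount. Probe sets had to exceed the median of their array on 3 or more arrays, which kept 23739. These entered limma 3.58.1 (R 4.3.3) with all 10 arrays, a mean for each group, default moderation and Benjamini-Hochberg adjustment at 0.05. Intervals are 95% intervals of the moderated fit. The script was tested on simulated data. A gene in a list was represented by its brightest kept single-gene probe set (12714 genes). No fold is given where a group was above background on no array. Exact permutation tests (two-sided, over arrays) served for within-array ratios. The number of arrays limits the precision.

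Named were all CPEB probe sets, every list member called between SCC and cytoplast, 11 genes picked for their role where measured and, per CPEB gene, the 3 named genes most correlated over the arrays. The members and lists were chosen with earlier results of these data known. Alternatives were the scaling, filter, pseudocount, arrays fitted, moderation, probe set per gene, replicate block and each array left out. Those with the hybridisation controls were added after the data were seen.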

Additional observations from a re-analysis of the deposited data

How the results depend on the processing

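The 2 CPEB calls between SCC and cytoplast numbered 1 to 3 with single arrays left out (1 without SCC replicate 2 or SCC replicate 3, 3 without MII oocyte replicate 3), and 3 with the hybridisation controls as a covariate or a block, where Cpeb4 1420617_at passed too. Against the MII oocyte 1 was called with the hybridisation controls as a covariate, and 1 with them as a block. Higher partner genes in SCC against cytoplast numbered 0 after cyclic loess, 0 after quantile normalization, 5 with the probe set of smallest p, 5 with the 75th percentile filter, 4 with only those arrays, 8 with the control covariate, 7 with the control block, and 0 to 5 with single arrays left out (5 without SCC replicate 1, 0 without SCC replicate 2, SCC replicate 3 or cytoplast replicate 1, and 4 when cytoplast replicate 4 or MII oocyte replicate 3 was dropped, with 1 when cytoplast replicate 2 was). Lower partner genes numbered 0 with log2(value + 16) and 0 to 1 with single arrays left out; Ddx6 itself was not called in 8 of 20 alternatives. Target genes numbered 1 after cyclic loess, 1 after quantile normalization, 11 with the control covariate and 1 to 10 with single arrays left out, and 1 was lower with the probe set of smallest p. Against the MII oocyte 2 targets were called with the control covariate, 2 with the control block and 0 to 1 with single arrays left out, and 1 partner with the covariate. 1 partner was lower than in the MII oocyte in the leave-one-out fits (0 to 1). The cause of these moves was not tested.

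Same-numbered arrays correlated at 0.0214 on average in their residuals (-0.304 to 0.614, 2 of 8 pairs above 0.1), and 3 of 10 arrays correlated best with their own number, so the numbers were not taken as pairs. With the replicate block, CPEB calls numbered 2, partner calls 5 and target calls 9 in SCC against cytoplast, 1 target was called against the MII oocyte, and none of the 3 gene pairs passed (sign flips over 3 numbers cannot go below 0.25). Signs turned as follows. Cpeb3 1437765_at was at -0.085 after cyclic loess, -0.14 after quantile normalization, -0.0030 with the replicate block and -0.18 to 0.20 with single arrays left out, and Cpeb3 1456048_at at -0.28 to 0.043. After cyclic loess and quantile normalization Ccnb2 was at -0.031 and -0.038, Tent2 at -0.045 and -0.058, Eif4enif1 at -0.0067 and -0.082, and Aurka at -0.036 after the second. Tpx2 was at 0.072 with the replicate block and -0.25 to 0.12 with single arrays left out. The Cpeb4 to Cpeb3 ratio was at 0.41 with the mean of the kept probe sets of each gene. Pair tests without 1 array cannot go below 0.0667 and were given no test. With 3 to 4 arrays a group, probe sets near background, among them Cpeb1, are read with little margin.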
